A study of Homo sapiens with 18 samples.

Results

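The early transcriptional response to PPP2R3B was measured in SKMEL2, a human melanoma cell line, by comparing 3 libraries made 6 h after induction with 3 libraries of untreated cells across all expressed genes. Of the 58051 genes in the count table, 16120 carried enough reads to be tested. All 6 libraries came from a stable SKMEL2 line that carries a mutant NRAS and a lentiviral, doxycycline-inducible construct of Myc-tagged PPP2R3B, so the untreated cells also hold the construct and differ by the lack of doxycycline. None of the groups is a line without the PPP2R3B insert that received doxycycline, so the drug and the induced gene cannot be told apart, and the time at which the untreated cells were harvested is not given in the sources used here. The whole series holds 18 libraries in 6 groups of 3, the other groups being SKMEL2 induced for 18 h and a like line of SKMEL30, another melanoma line with mutant NRAS, untreated and induced for 6 h and 18 h. The later time is given as in the labels, and the study's text gives another hour for it. Nothing in the labels says that the 3 libraries of a group came from separate cultures, so the p-values measure the spread between these samples, which may be technical.

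Protein phosphatase PP2A removes phosphate from serine and threonine and is built from a scaffold subunit, a catalytic subunit and a regulatory B subunit, which guides the enzyme to its substrates. PPP2R3B encodes one of the regulatory subunits and lies in the pseudoautosomal region shared by the X and Y chromosomes. PP2A acts on many kinases and cell cycle proteins. In melanoma cells the outputs most studied include the ERK cascade downstream of NRAS, the pigment programme of the transcription factor MITF, and an invasive state. In that state YAP, a coactivator that responds to cell shape, is active together with the TEAD transcription factors that it binds.

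Totals ran from 14711081 to 22383470 counts in the 6 libraries. Replicate 3 at 6 h stood apart from the other 5 libraries. Its root mean square deviation from its group mean was 0.176 log2 units, against 0.0932 to 0.139 in the others, and it lay at -22.5 on a first principal component on which the others lay between 0.750 and 7.26. Biological variation, as the common coefficient that edgeR estimates, came to 8.36% in this line against 4.11% in SKMEL30. Melanocyte lineage markers were all measured in SKMEL2, with PMEL, a pigment granule protein, at 1623 ± 240.2 CPM (counts scaled to a common library size) and SOX10, a lineage transcription factor, at 664 ± 86.7 CPM in untreated cells (SD, n = 3).

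Promoters of 4 genes on which the results turn are given first, 5′ to 3′ along the strand of the gene, from 250 bases before to 50 after the start in RefSeq on GRCh38.p14. C21orf91 and SLC25A36 are shown because they had the smallest p after PPP2R3B, and CCN2 and ANKRD1 because they are standard YAP and TEAD targets. Capitals mark the motifs searched on both strands, which were the core of the TEAD site GGAATG, the E-box CACGTG, the cyclic AMP response element TGACGTCA and the CCAAT box CCAAT in the first pair, and the TEAD core alone in the second.
C21orf91 promoter, chr21:17819307-17819606, minus strand: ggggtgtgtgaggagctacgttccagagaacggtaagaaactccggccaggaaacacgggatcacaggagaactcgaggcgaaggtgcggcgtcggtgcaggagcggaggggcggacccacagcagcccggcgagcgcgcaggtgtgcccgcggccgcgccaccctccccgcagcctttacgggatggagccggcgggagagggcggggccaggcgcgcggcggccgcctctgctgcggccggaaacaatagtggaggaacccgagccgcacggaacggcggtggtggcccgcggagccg
SLC25A36 promoter, chr3:140941586-140941885, plus strand: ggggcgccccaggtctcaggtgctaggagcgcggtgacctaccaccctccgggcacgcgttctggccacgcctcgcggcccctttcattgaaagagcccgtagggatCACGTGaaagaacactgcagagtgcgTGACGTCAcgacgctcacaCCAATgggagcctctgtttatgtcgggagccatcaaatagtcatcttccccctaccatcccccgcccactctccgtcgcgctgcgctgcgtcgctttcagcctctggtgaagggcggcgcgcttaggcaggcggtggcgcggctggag
CCN2 promoter, chr6:131951323-131951622, minus strand: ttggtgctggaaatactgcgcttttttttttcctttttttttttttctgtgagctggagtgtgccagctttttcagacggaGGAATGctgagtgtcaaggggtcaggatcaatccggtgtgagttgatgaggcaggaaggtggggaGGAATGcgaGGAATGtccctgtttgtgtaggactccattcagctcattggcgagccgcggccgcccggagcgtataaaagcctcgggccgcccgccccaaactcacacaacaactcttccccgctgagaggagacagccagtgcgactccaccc
ANKRD1 promoter, chr10:90921038-90921337, minus strand: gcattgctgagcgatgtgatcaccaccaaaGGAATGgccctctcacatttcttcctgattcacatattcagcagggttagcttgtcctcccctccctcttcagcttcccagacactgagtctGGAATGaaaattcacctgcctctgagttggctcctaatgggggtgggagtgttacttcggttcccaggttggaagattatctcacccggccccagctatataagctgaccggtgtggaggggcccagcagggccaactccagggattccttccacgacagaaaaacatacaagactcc

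The window of C21orf91 was 72% G and C, and none of the 4 motifs was found in it. SLC25A36 held an E-box 143 bases, a cyclic AMP response element 117 bases and a CCAAT box 98 bases upstream of the start. Over all 35116 promoter windows these motifs occurred in 7.26%, 1.85% and 34.6%. CCN2 held 3 TEAD cores, at 169, 104 and 95 bases upstream, and ANKRD1 held 2, at 220 and 128 bases. The TEAD core occurred in 14% of all windows and in 9 of 21 windows of the YAP and TEAD targets tested here. That list is made of genes known for such sites. The 21 windows belong to 17 of its 24 tested genes, and 9 of those genes held the core. A match is a description of the letters only.

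PPP2R3B and 1 other gene, C21orf91, rose at 6 h in the test across all genes, and no gene fell. PPP2R3B, at chrX:333933-386907, stood at 25.5, 21.2 and 17.8 CPM in the 3 untreated libraries and at 355, 432 and 543 CPM at 6 h. The groups lay far apart, and replicate 3 had the highest level of the induced libraries. The log2 fold change was 4.37 ± 0.167 (SE, adjusted p = 5.89e-08 in edgeR's quasi-likelihood test), a 20.7-fold rise. The counts per gene do not separate the transcript of the construct from that of the cell's own gene. At 18 h the level was 491 ± 46.1 CPM (SD, n = 3), within the spread of the 6 h libraries, which held 443 ± 94.4 CPM.

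C21orf91, at chr21:17788974-17819356, encodes a protein studied in the development of the cerebral cortex. It stood at 123, 98.1 and 95.3 CPM in untreated cells and at 256, 235 and 203 CPM at 6 h. Every induced library lay above every untreated one, and replicate 3 was the lowest of the induced libraries although its PPP2R3B was the highest. In RNA from whole cultures, more cells that express a gene and more of its RNA per cell cannot be told apart. Its log2 fold change was 1.13 ± 0.101 (SE, adjusted p = 6.10e-04 in edgeR), a 2.19-fold rise. At 18 h the level was 259 ± 1.29 CPM (SD, n = 3), a log2 fold change of 1.29 against the same untreated libraries (adjusted p = 1.36e-04 in edgeR).

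These 2 calls were 0.0124% of the genes tested. At an unadjusted p under 0.05 in edgeR, 256 genes were higher (1.59%) and 312 lower (1.94%). In 521 genes (3.23%) all induced libraries lay above all untreated ones, and in 601 (3.73%) all lay below. The median absolute log2 fold change was 0.0826, and of the 11024 genes with a mean of 100 counts or more, 17 differed by over 1.5-fold and 6 by over 2-fold. DESeq2, run here on the same counts, called 8 of 16119 genes (0.0496%), 5 higher and 3 lower. These were PPP2R3B, C21orf91, SLC25A36, ZNF608 and CCNG1 on the higher side and DLC1, CCN2 and TGIF2-RAB5IF on the lower.

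**Figure D1:**
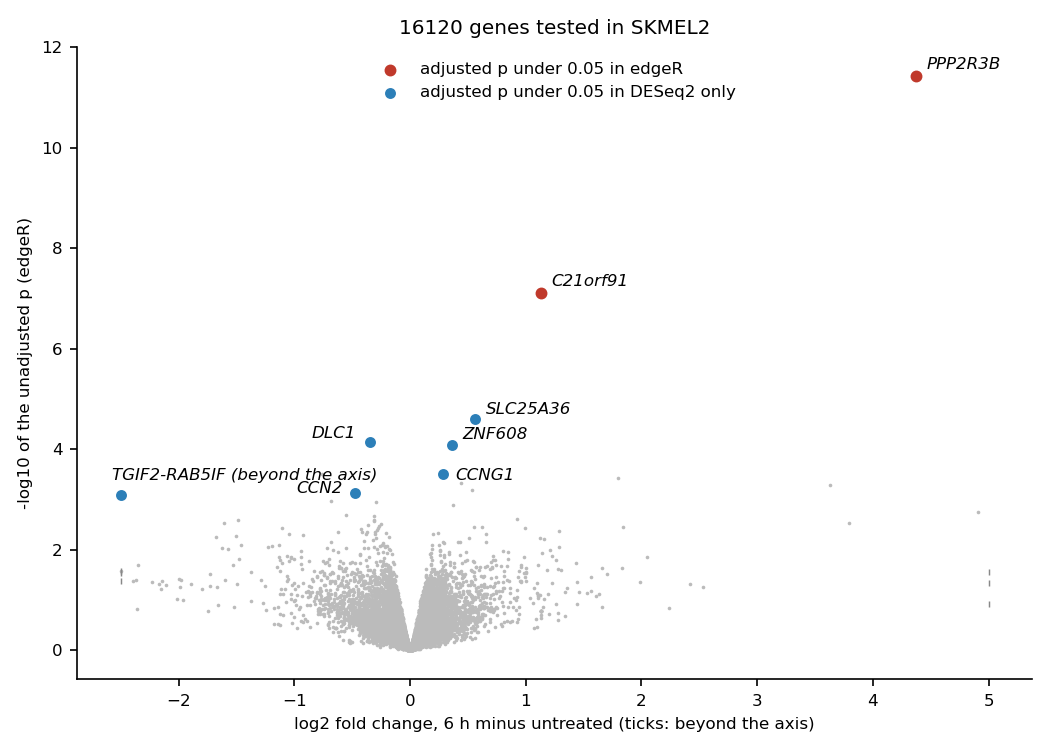
Log2 fold change at 6 h against untreated (x axis) and -log10 of the unadjusted p in edgeR (y axis) for the 16120 genes tested in SKMEL2, with ticks at the edges for genes beyond the axis. The 2 genes called in edgeR (red) stand clear of the rest, and of the 6 called in DESeq2 only (blue) TGIF2-RAB5IF lies beyond the left edge and the others next to the cloud of other genes (grey).

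SLC25A36, at chr3:140941836-140980995, encodes a carrier of pyrimidine nucleotides in the inner mitochondrial membrane. It stood at 191, 174 and 164 CPM in untreated cells and at 285, 273 and 225 CPM at 6 h. The groups did not overlap, and replicate 3 was again the lowest of the induced libraries. This gave a log2 fold change of 0.56 ± 0.0863 (SE), with an adjusted p of 0.131 in edgeR and 3.22e-06 in DESeq2. Without replicate 3 at 6 h the value was 0.66, and edgeR called it.

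ZNF608, a zinc finger gene at chr5:124636915-124748824, stood at 36.3, 33.4 and 35.98 CPM in untreated cells and at 44.3, 46.01 and 45.4 CPM at 6 h, with little spread within either group. The log2 fold change was 0.36 ± 0.0628 (SE, adjusted p = 0.263 in edgeR and 0.014 in DESeq2). CCNG1 encodes cyclin G1, a p53 target whose protein binds regulatory subunits of PP2A. It stood at 134, 128 and 123 CPM in untreated cells and at 157, 151 and 160.5 CPM at 6 h, again without overlap. Its log2 fold change was 0.28 ± 0.05704 (SE, adjusted p = 0.713 in edgeR and 0.014 in DESeq2). Of 25 tested p53 targets CCNG1 was the single one with an unadjusted p under 0.05 in edgeR, and the median of the list was 0.020. Over all genes the shares were 1.59% higher and 1.94% lower, so 1 of 25 is near them.

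DLC1, which is listed among the YAP and TEAD targets, was on the lower side. It stood at 83.3, 88.5 and 85.3 CPM in untreated cells and at 65.2, 71.2 and 65.8 CPM at 6 h, without overlap. This gave a log2 fold change of -0.35 ± 0.0592 (SE, adjusted p = 0.263 in edgeR and 0.0019 in DESeq2). TGIF2-RAB5IF, a read-through transcript of the neighbouring genes TGIF2 and RAB5IF, had 22, 26 and 12 counts in untreated libraries and 0 in each library at 6 h. Against a floor of 3 counts per library it was at least 5.77-fold lower (adjusted p = 0.981 in edgeR and 0.0019 in DESeq2). At 18 h it had 45, 25 and 9 counts, and in SKMEL30 it was at 0 in some libraries of each group. The gene overlaps TGIF2 and RAB5IF, so the share of reads given to it is uncertain.

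**Figure D2:**
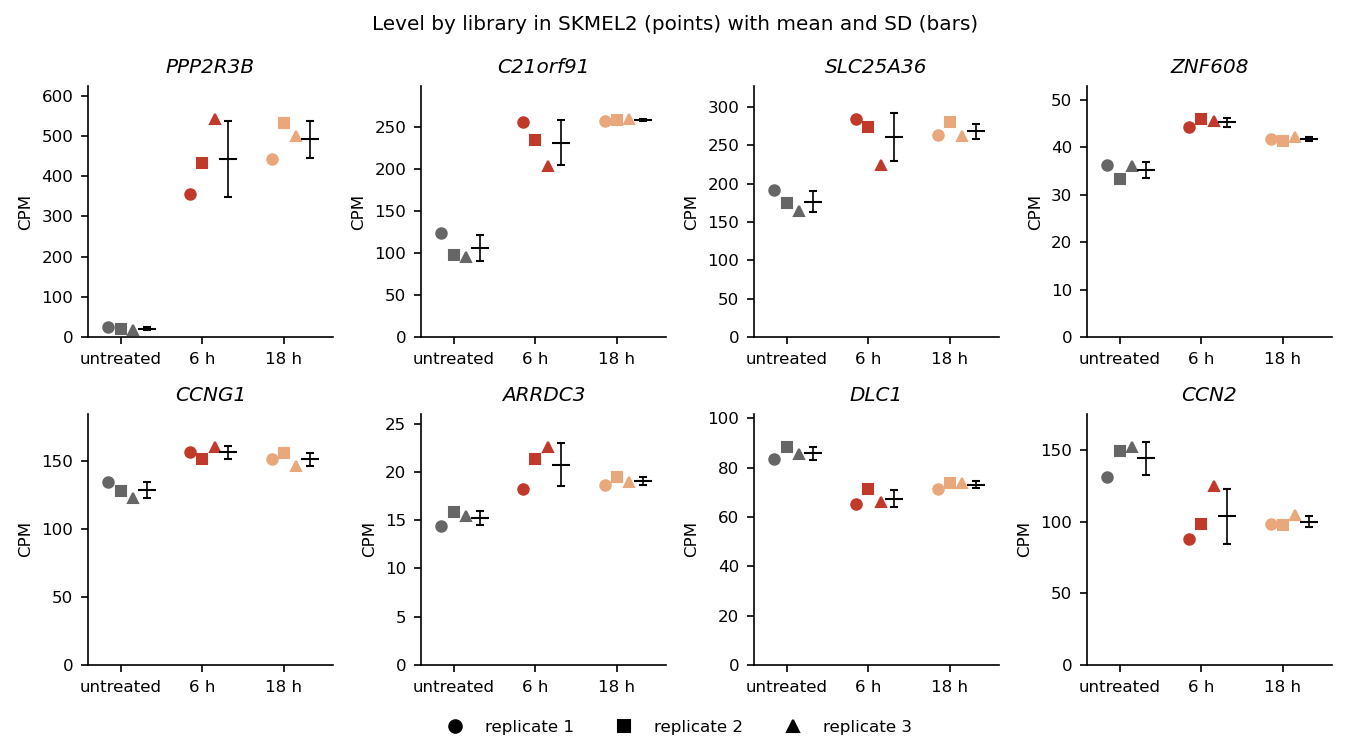
CPM (y axes, from 0) in each SKMEL2 library of 8 genes by group (x axes), with a symbol for each replicate and black bars for the mean and SD of 3 libraries. At 6 h PPP2R3B, C21orf91, SLC25A36, ZNF608, CCNG1 and ARRDC3 lie above untreated and DLC1 and CCN2 below it, all without overlap. Over all genes 3.23% lay above and 3.73% below without overlap.

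The other named genes among the 24 with the smallest p passed in neither tool. ARRDC3, an alpha-arrestin that links membrane receptors to ubiquitin ligases, stood at 14.4, 15.8 and 15.4 CPM in untreated cells and at 18.2, 21.4 and 22.6 CPM at 6 h. The log2 fold change was 0.44 ± 0.0938 (SE, adjusted p = 0.839 in edgeR). Of the other alpha-arrestins ARRDC1 was at 0.14, ARRDC2 at -0.015, ARRDC4 at 0.17 and TXNIP, an inhibitor of glucose uptake, at 0.18. The median of the 5 was 0.17, and it was 0.013 without replicate 1 at 6 h and 0.32 without replicate 3.

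YPEL4 was at 5.16 ± 0.299 CPM in untreated cells and 7.46 ± 0.398 at 6 h, each with its SD over 3 libraries. TGM5, a transglutaminase of the epidermis, stood at 0.426, 0.567 and 0.319 CPM in untreated cells and at 1.38, 2.08 and 1.04 CPM at 6 h. Their log2 fold changes were 0.54 and 1.80, the latter at few counts. COL8A1, a chain of type VIII collagen, was at 4.87 ± 0.236 CPM in untreated cells and 2.99 ± 0.535 at 6 h, and ERCC5, an endonuclease of nucleotide excision repair, at 28.1 ± 1.54 and 22.6 ± 1.73 (SD, n = 3). USP53 stood at 180.1, 176 and 197 CPM in untreated cells and at 147, 164 and 139 CPM at 6 h. The log2 fold changes of COL8A1, ERCC5 and USP53 were -0.68, -0.31 and -0.30. All 5 genes were without overlap between groups, against 3.23% above and 3.73% below over all genes. They were chosen for a small p in this same comparison, so the lack of overlap is no separate support. COL8A1, ERCC5 and USP53 had an adjusted p of 0.989 in edgeR.

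Lists of stress genes had medians near 0. Of 23 cytosolic chaperones 9 were positive and 14 negative, with a median of -0.027. HSPA1A and HSPA1B, near-identical genes for inducible HSP70 whose reads cannot be assigned with certainty, were at -0.14 and -0.14, and HSPA5, the main chaperone of the endoplasmic reticulum, at -0.12. These 3 had an unadjusted p under 0.05, as did TRIB3 at 0.33 and ATF4 at 0.14, a transcription factor of the integrated stress response. The shares over all genes were 1.59% higher and 1.94% lower. The 25 ATF4 targets had a median of -0.032 and the 24 genes of the unfolded protein response one of -0.0023.

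The other subunits of PP2A showed no call. PPP2R1A, a scaffold, was at 128 ± 6.94 CPM in untreated cells and 141 ± 18.99 at 6 h, and PPP2CA, a catalytic subunit, at 308 ± 5.18 and 305 ± 12.9 (SD, n = 3). Their log2 fold changes were 0.14 ± 0.0843 and -0.013 ± 0.0552 (SE). PPP2R1B and PPP2CB, their paralogs, were at -0.012 and 0.021. In edgeR 0 of these 4 genes, 0 of 13 tested regulatory subunits and 0 of 13 assembly factors and inhibitors had an unadjusted p under 0.05. Over all genes the shares were 1.59% higher and 1.94% lower, so 0 in lists this short is near that share. Among the regulatory subunits PPP2R2D was at -0.18. The genes next to PPP2R3B on its chromosome lay between -0.025 and 0.18 in 6 tested members, and those next to C21orf91 between -0.025 and 0.13 in 4.

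Targets of YAP and TEAD had the lowest median of the 24 lists plotted, which leave out markers of other cell types. Of 24 tested members 20 were negative and 4 positive, with a median log2 fold change of -0.15, against 0.0031 over all genes tested. None was called in edgeR, while 8 had an unadjusted p under 0.05, all on the lower side (over all genes 1.94%), and in 5 all induced libraries lay below all untreated ones (over all genes 3.73%). The summed level of the list was 1429 to 1577 CPM in untreated libraries and 1230.4 to 1387 CPM at 6 h. The median was -0.085 without untreated replicate 3, where 4 members had an unadjusted p under 0.05, and -0.21 without replicate 2 at 6 h, where 10 had. In that last fit the number over all genes rose as well, from 312 of 16120 to 671 of 16430 on the lower side.

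CCN2, a secreted matricellular protein also known as CTGF, at chr6:131948176-131951372, is a standard target and a marker of their activity. It stood at 131, 149.6 and 153 CPM in untreated cells and at 87.97, 98.2 and 125 CPM at 6 h. The groups did not overlap, and replicate 3 was the induced library nearest to untreated. This gave a log2 fold change of -0.48 ± 0.108 (SE, adjusted p = 0.981 in edgeR and 0.0413 in DESeq2). CCN1, a relative of CCN2, stood at 28.5, 38.5 and 43.7 CPM in untreated cells and at 20.03, 24.05 and 32.3 CPM at 6 h. Its groups overlapped, with a log2 fold change of -0.55 ± 0.179 (SE).

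ANKRD1, a nuclear protein first studied in heart muscle, stood at 45.8, 62.96 and 60.3 CPM in untreated cells and at 34.9, 44.8 and 50.5 CPM at 6 h. Its groups overlapped too, with a log2 fold change of -0.38 ± 0.137 (SE). AMOTL2, a junction protein that binds YAP, was at -0.29, PTPN14, a phosphatase that holds YAP in the cytoplasm, at -0.20, CRIM1 at -0.16 and F3, which encodes tissue factor, at -0.29. PTPN14, CRIM1 and F3 were without overlap, as were 3.73% of all genes on the lower side. They were named after their values were seen, so the lack of overlap is no separate support. In CCN1, CCN2 and ANKRD1 replicate 1 was the lowest and replicate 3 the highest of the induced libraries. The 15 tested genes of actin and its transcription factor SRF had a median of -0.052 and 0 members at an unadjusted p under 0.05 in edgeR. Over all genes the shares were 1.59% higher and 1.94% lower, so 0 of 15 is near them.

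**Figure D3:**
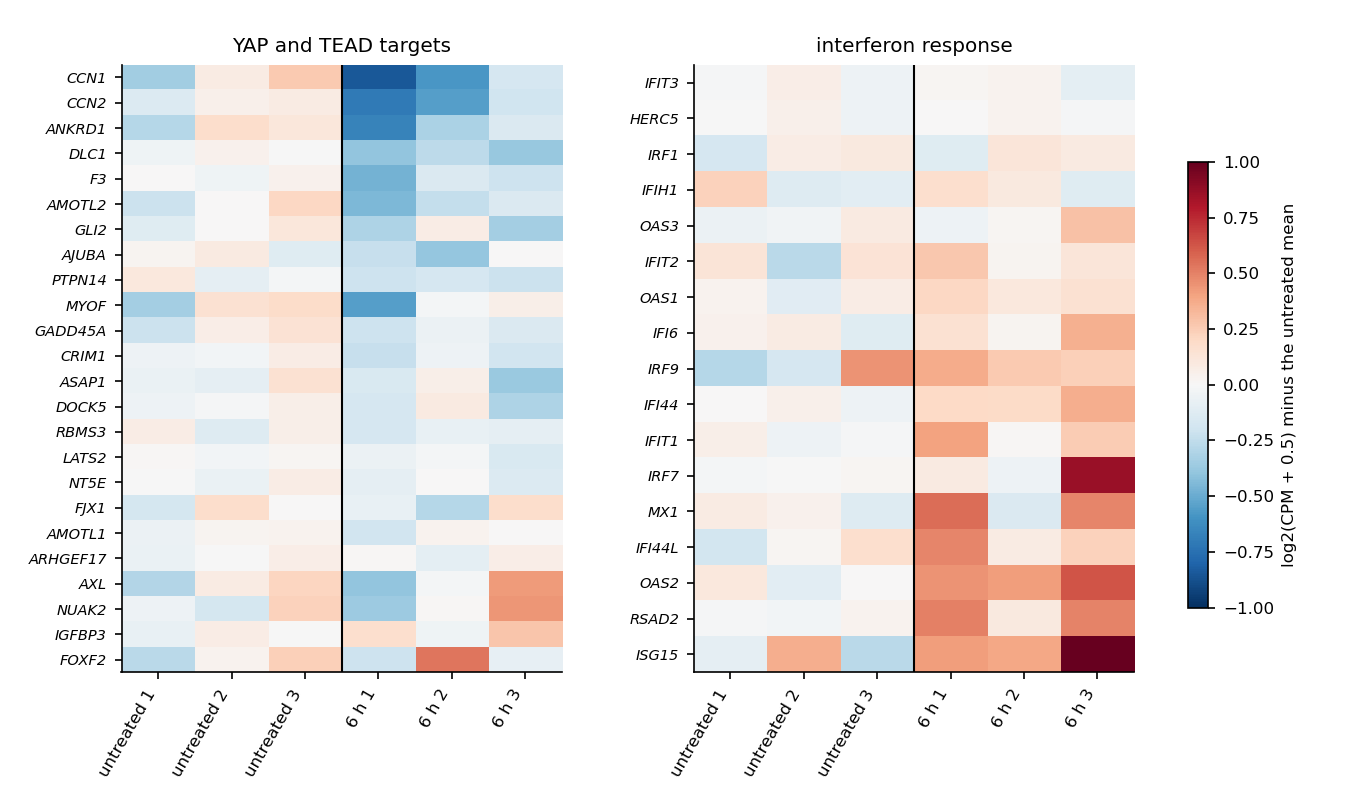
Log2(CPM + 0.5) minus the mean of the untreated libraries (colour, from -1 to 1) for the 24 tested YAP and TEAD targets (left) and 17 of the 18 tested interferon response genes (right) in each of the 6 libraries (columns). At 6 h the lowest values are those of CCN1, CCN2 and ANKRD1 in replicate 1, and the highest those of ISG15 and IRF7 in replicate 3.

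Genes of the invasive melanoma state share CCN1 and CCN2 with the YAP and TEAD list. Of 27 tested members 20 were negative and 7 positive, 6 had an unadjusted p under 0.05, all lower (over all genes 1.94%), and the median was -0.059. The median was -0.015 without untreated replicate 3, -0.029 without replicate 1 at 6 h and -0.097 without replicate 2 at 6 h. POU3F2, or BRN2, a transcription factor of that state, stood at 64.6, 63.6 and 69.4 CPM in untreated cells and at 54.5, 58.5 and 46.1 CPM at 6 h, without overlap. The log2 fold change was -0.31 ± 0.0824 (SE, adjusted p = 0.989 in edgeR). AHNAK, a giant scaffold protein, stood at 821, 649 and 665 CPM in untreated cells and at 560.2, 579.8 and 577 CPM at 6 h, without overlap, with a log2 fold change of -0.31 ± 0.0839 (SE). THBS1, which encodes thrombospondin, was at -0.36 and MICAL2, an enzyme that takes actin filaments apart, at -0.31.

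In the list of MITF targets and pigment genes 20 of 26 members were positive, with a median of 0.065, which was 0.032 without untreated replicate 3 and 0.040 without replicate 1 at 6 h. Of the 26 members 1 had an unadjusted p under 0.05 in edgeR, near the shares over all genes of 1.59% higher and 1.94% lower. That member was TYRP1, an enzyme of pigment synthesis. It stood at 3.59, 4.64 and 4.42 CPM in untreated cells and at 12.6, 4.33 and 5.22 CPM at 6 h, so that replicate 1 alone was high. MITF was at 0.072, PMEL at 0.12, TYR at 0.064 and SOX10 at 0.090. Of the 12 melanocyte lineage markers, to which these belong, 7 were positive and 5 negative. They ran from -0.18 to 0.82, with a median of 0.035.

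Interferon response genes had the highest median of the same 24 lists, a rank that passed to the alpha-arrestins without replicate 3 at 6 h (0.32 against 0.16) or untreated replicate 1 (0.23 against 0.20). Of 18 tested members 17 were positive and 1 negative, with a median of 0.22. None was called in edgeR, 3 had an unadjusted p under 0.05, all higher (over all genes 1.59%), and in 5 all induced libraries lay above all untreated ones (over all genes 3.23%). OAS2, a sensor of double-stranded RNA, stood at 4.202, 3.55 and 3.87 CPM in untreated cells and at 5.45, 5.34 and 6.26 CPM at 6 h. Its log2 fold change was 0.55 ± 0.154 (SE, adjusted p = 0.989 in edgeR). IFI44 was at 13.6 ± 0.478 CPM in untreated cells and 16.3 ± 1.16 at 6 h, and ISG15, a ubiquitin-like modifier, at 2.02 ± 0.589 and 3.33 ± 0.972 CPM (SD, n = 3). Their log2 fold changes were 0.26 and 0.71.

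The summed level of the interferon list was 455 to 458 CPM in untreated libraries and 469 to 486 CPM at 6 h. The median was 0.16 without replicate 3 at 6 h, where 3 members had an unadjusted p under 0.05, and 0.27 without replicate 2, where 8 had. In the latter fit the number of genes on the higher side rose from 256 of 16120 to 836 of 16430 over all genes. At 18 h it was 0.17 against the same untreated libraries.

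**Figure D4:**
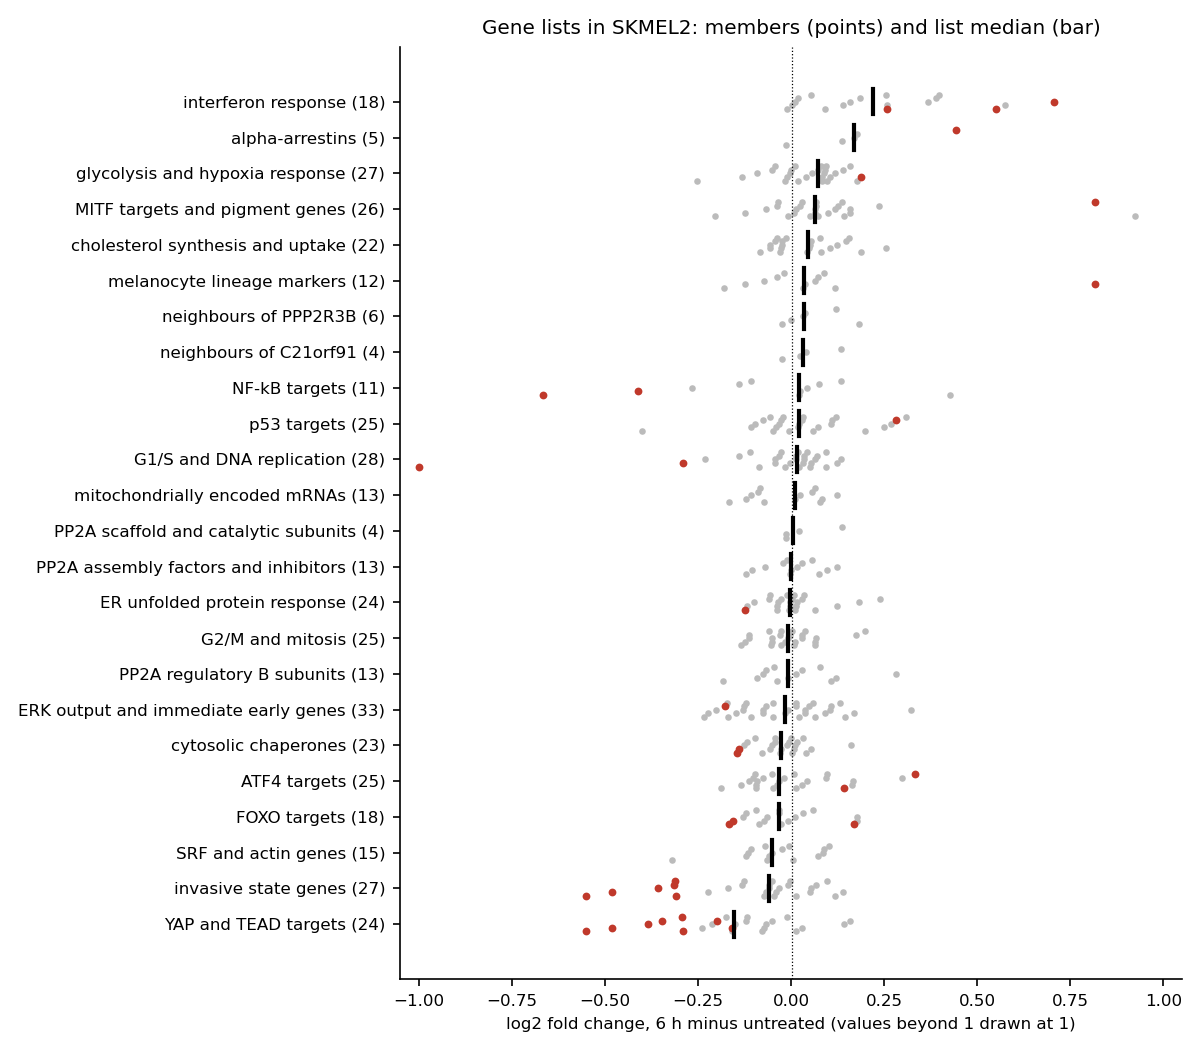
Log2 fold change at 6 h against untreated (x axis) of the tested members (points) of 24 gene lists (y axis, number tested in brackets), with list medians as black bars, members with an unadjusted p under 0.05 in red, and the dotted line at the median of all genes. Medians run from -0.15 for the YAP and TEAD targets to 0.22 for the interferon response.

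Among 33 genes of ERK output the median was -0.017, and 1 had an unadjusted p under 0.05, SPRY2, a feedback inhibitor of the pathway, at -0.18. In 28 genes of G1/S and DNA replication the median was 0.016, with 2 members lower and 0 higher at an unadjusted p under 0.05 in edgeR. In 4 of the 28 all induced libraries lay below all untreated ones (over all genes 3.73%). CDK6, a kinase of the G1 phase, was at 458 ± 35.99 CPM in untreated cells and 375 ± 48.3 at 6 h (SD, n = 3), a log2 fold change of -0.29 ± 0.0869 (SE). CCND2, a cyclin partner of CDK6, was at -1.29 but below 1 CPM. In 25 genes of G2/M and mitosis 0 had an unadjusted p under 0.05 in edgeR. The shares over all genes were 1.59% higher and 1.94% lower, so 1 of 33 ERK genes and 0 of 25 mitosis genes are near them.

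Of 11 NF-kB targets BIRC3, an inhibitor of apoptosis, was at -0.41 and the chemokine CXCL1 at -0.67, and the median was 0.021. Among 18 FOXO targets GABARAPL1, an autophagy gene, was at 0.17, TRIB1 at -0.17 and FBXO32, a ubiquitin ligase of muscle atrophy, at -0.16. In 27 genes of glycolysis and the hypoxia response the median was 0.072, and PFKFB4, a regulator of glycolysis, was at 0.19. That median was 0.0088 without replicate 3 at 6 h, with 15 members positive and 12 negative, and 0.040 without untreated replicate 3. The 22 cholesterol genes had a median of 0.046 and the 13 mitochondrially encoded mRNAs one of 0.012. In either list 0 members had an unadjusted p under 0.05 in edgeR. For lists this short that is near the shares over all genes, 1.59% higher and 1.94% lower. Many medians this close to 0 changed sign when 1 library was left out, among them those of the ERK, SRF, FOXO, ATF4, NF-kB, G1/S, cholesterol and mitochondrial lists. Mitochondrial genes took 6.56% to 9.49% of counts in untreated libraries and 6.73% to 8.76% at 6 h.

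Among genes with a mean of 100 counts or more, NXF2B was at 0.65, with 273, 366 and 460 counts in untreated libraries and 443, 491 and 500 at 6 h. Its near-identical copy NXF2 had 674, 748 and 877 counts untreated and 600, 584 and 334 at 6 h. The sum of both copies was 947, 1114 and 1337 counts in untreated libraries and 1043, 1075 and 834 at 6 h, so the division of reads between them is uncertain.

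Of the markers of other cell types, those of fibroblasts, immune cells and endothelium had 0 members with an unadjusted p under 0.05 in edgeR. For lists this short that is near the shares over all genes, 1.59% higher and 1.94% lower. Summed levels of these 3 lists were 16.9 to 21.8, 56.3 to 72.7 and 12.8 to 13.6 CPM at 6 h. Of 8 tested keratinocyte markers 5 were negative, and KRT14 and DSG3 had an unadjusted p under 0.05 in edgeR (over all genes 1.94% lower). The number of markers lower at that p was 0 with a robust estimate of the spread. It was 4 without a filter on low counts and 4 without replicate 3 at 6 h. The median of the list was -0.84, the lowest of all 29 lists. It was -1.52 without replicate 3 at 6 h and -0.075 in a fit of only the 6 libraries, where 7 members were tested. With at least 10 counts in every library 4 members were left, 3 positive and 1 negative, and their median was 0.067. KRT5, a keratin of basal epidermis, had 142, 105 and 82 counts in untreated libraries and 3, 0 and 61 at 6 h, and KRT14, its partner, had 116, 100 and 75 counts untreated and 12, 9 and 60 at 6 h. Replicate 3 at 6 h was thus the induced library closest to untreated in both. KRT1, a keratin of differentiated epidermis, was at 0 in all 6 libraries. The summed level of the keratinocyte markers was 59.4 to 75.2 CPM in untreated libraries and 51.4 to 68.4 CPM at 6 h, most of it from KRT10 and TP63, which had 478, 405 and 456 and 404, 386 and 284 counts at 6 h. The part of these markers in the other results was not tested.

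The same comparison in SKMEL30, which shares no library with SKMEL2, called 31 of 15026 genes (0.206%) in edgeR, 14 higher and 17 lower. The difference of the 6 h response between the lines was tested in 1 fit of all 18 libraries, in which 1 of 17133 genes (0.00584%) was called, C4A, at few counts. PPP2R3B was at 4.69 ± 0.0454 in SKMEL30 (log2 fold change and SE), and the lines differed by -0.32 ± 0.177 (adjusted p = 0.919 in edgeR). C21orf91 was at 1.12 ± 0.02997 in SKMEL30, with a difference of 0.017 ± 0.112. SLC25A36, not called in SKMEL2, was called in SKMEL30, at 0.58 ± 0.0402 (adjusted p = 2.95e-06 in edgeR). Its difference between the lines was -0.020 ± 0.104, so a call in 1 line and not in the other does not show that the lines differ.

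ZNF608, ARRDC3, CCNG1 and AHNAK had values near 0 in SKMEL30. ZNF608 was at -0.027 ± 0.0536 there, and the lines differed by 0.39 ± 0.0774 (SE, adjusted p = 0.719 in edgeR). ARRDC3 was at -0.012 ± 0.0742, with a difference of 0.45 ± 0.115 (SE, adjusted p = 0.919 in edgeR). CCNG1 was at 0.073 and AHNAK at 0.036. None of these 4 differences passed the test.

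Of the genes on the lower side in SKMEL2, DLC1 was at -0.22 ± 0.0332, CCN1 at -0.79 ± 0.0744, POU3F2 at -0.31 ± 0.0533, AMOTL2 at -0.39 ± 0.0572 and THBS1 at -0.32 ± 0.0389 in SKMEL30, and these 5 fell there (adjusted p from 5.44e-05 for CCN1 to 0.0302 for POU3F2 in edgeR). CCN2 was at -0.29 ± 0.101 and ANKRD1 at -1.06 ± 0.239 there and were not called. Nor were USP53 at -0.11, ERCC5 at -0.069 and SPRY2 at -0.065, which were also lower in SKMEL2. AMOTL2, THBS1 and ANKRD1 were named after their values were seen, and not every lower gene named above is given here. The genes called and not called are thus no rate for the lower side. Over all genes 17 of 15026 were called lower in SKMEL30. The median of the YAP and TEAD list was -0.15 in SKMEL2 and -0.12 in SKMEL30. That of the interferon list was 0.22 and -0.023, and the difference between the lines was not tested for lists.

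**Figure D5:**
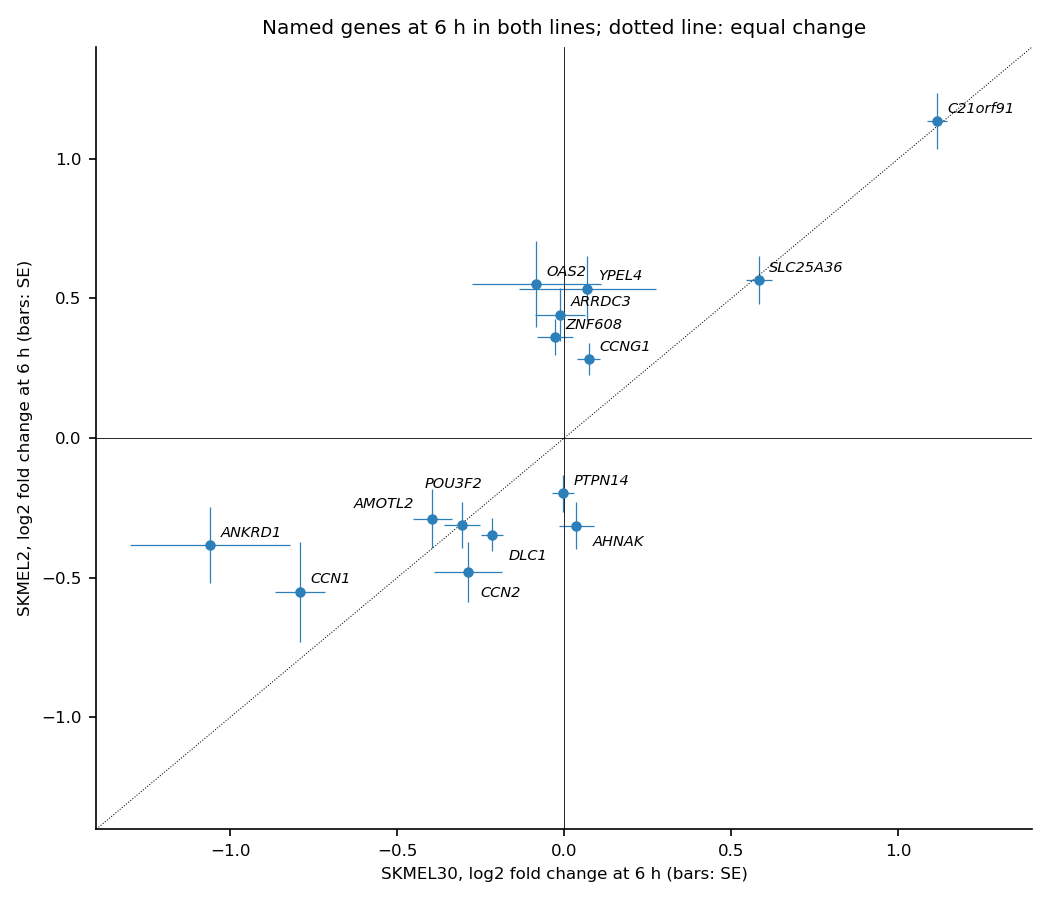
Log2 fold change at 6 h in SKMEL30 (x axis) and SKMEL2 (y axis) of 15 named genes, with bars for the SE and a dotted line for equal change. C21orf91 and SLC25A36 lie on the dotted line, OAS2, YPEL4, ARRDC3, ZNF608 and CCNG1 lie above it near 0 in SKMEL30, and ANKRD1 and CCN1 lie further below 0 in SKMEL30 than in SKMEL2.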

How the data were processed

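RNA was measured in 9 SKMEL2 and 9 SKMEL30 libraries made with an mRNA kit. The authors aligned the reads to the Ensembl transcriptome of GRCh38 and estimated counts per gene with RSEM; the submitters' processing notes name Trimmomatic 0.36, cutadapt 1.5, STAR 2.2.2a, SAMtools 1.8 and RSEM 1.3.0. The deposited values are expected counts of 58051 genes, of which 12.3% of values are not whole, and they were rounded to whole numbers. Symbols were matched for 55604 genes, and coordinates and promoter sequences are those of RefSeq on GRCh38.p14.

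Genes were kept with filterByExpr, libraries were scaled by TMM, and the 9 SKMEL2 libraries were fitted together with glmQLFit and tested at 6 h against untreated with glmQLFTest (edgeR 4.0.16, R 4.3.3), with Benjamini-Hochberg adjustment over all genes tested and a threshold of 0.05. The lines were compared by an interaction term, fitted over the 18 libraries together. CPM are counts divided by the TMM-scaled library size, and the floor for a count of 0 is 3 counts per library, which covers counting error only. DESeq2 1.42.0, other scaling, filters, spread estimates and sets of libraries, a replicate block and leaving out each library were tried as alternatives. The fits were tested on simulated data.

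The comparison, the genes and the 29 gene lists were chosen with earlier results of these data known. The named genes are PPP2R3B, C21orf91, the 24 genes with the smallest p, those called in either tool, the 3 members with the smallest p and the most abundant member of each list, all members of the melanocyte, alpha-arrestin and PP2A core lists and of a list not reported here, the 3 genes with the smallest p for the line difference, and the 5 with the largest change at a mean of 100 counts or more. PTPN14, ANKRD1, AMOTL2, CRIM1, F3, THBS1, MICAL2, IRF7, NXF2, NXF2B, C4B and the squamous genes of the closing section were named after their values were seen. Of 490 list symbols 487 matched a gene. Some genes that the rule names are not reported here.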

Additional observations from a re-analysis of the deposited data

Results flagged for a closer look

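The test of the 6 h response between the lines called 1 gene, C4A, a component of complement. Its log2 fold change was 5.34 higher in SKMEL2 than in SKMEL30 (adjusted p = 0.024 in edgeR). C4A had 1, 1 and 3 counts in the untreated SKMEL2 libraries and 3, 8 and 10 at 6 h, and 10, 16 and 10 in the untreated SKMEL30 libraries and 1, 2 and 1 at 6 h. C4B, a near-identical copy, had 10, 8 and 11 counts in untreated SKMEL30 and 11, 26 and 19 at 6 h. The sum of both was 9, 4 and 4 counts in untreated SKMEL2 and 4, 8 and 13 at 6 h. In SKMEL30 it was 20, 24 and 21 untreated and 12, 28 and 20 at 6 h, so the division of reads between the copies is uncertain. C4A was not called in DESeq2. With 1 library left out it was called without untreated replicate 3 or 6 h replicate 1 of SKMEL2 or untreated replicate 1 of SKMEL30, and not without any of the other libraries of the contrast.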

How the results depend on the processing

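The 2 genes called at 6 h were called under all 15 alternatives, PPP2R3B at 4.20 to 4.52 and C21orf91 at 1.06 to 1.26 (log2). The number of calls was 8 in DESeq2, 6 with all 18 libraries in 1 fit, 3 without a filter on low counts, and 2 to 5 when each library was left out, with 5 without replicate 3 at 6 h, where CCN2, SLC25A36 and NAIPP4 were added. Replicate numbers gave no clear pairing of the libraries. The deviations of same-numbered libraries correlated at 0.522, -0.283 and -0.00374, and those of different-numbered ones at -0.465 to 0.389. So few correlations cannot show that pairing is absent. A replicate block took the genes at an unadjusted p under 0.05 in edgeR from 568 to 759. With the replicate block 3 genes were called at 6 h, SLC25A36 being added, and 7 for the line difference. The 7 were C4A, a gene without a symbol, KRT14, KRT17, KRT6A, SERPINB2 and SERPINB5. The keratin and SERPINB genes among them varied between libraries of the same group, as described in the closing section. The line difference called 0 genes in DESeq2 (595 at an unadjusted p under 0.05), 0 with at least 10 counts in every library (544), 0 with edgeR's earlier quasi-likelihood method (842), and 0 to 1 when each library was left out. Of 1041 values of 70 genes, 1023 kept their direction and side of the threshold, 14 passed it only under the alternative, and 4 changed sign when 1 library was left out, where TXNIP ran from -0.041 to 0.39, PPP2CA from -0.049 to 0.0079 and SOX10 from -0.039 to 0.20; the cause was not tested. Depth limits genes under 30 counts, whose median SE was 0.358 against 0.065 at 3000 counts or more.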

Other observations

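Genes of squamous epithelium varied between libraries of the same group in both lines. The counts of KRT5, KRT14, KRT17, KRT6A, DSP, DSG3, SERPINB2 and SERPINB5, 8 genes chosen after their values were seen, summed to 679, 548 and 384 in the untreated SKMEL2 libraries, 34, 26 and 294 at 6 h and 751, 667 and 36 at 18 h. In SKMEL30 they summed to 6, 18 and 37 untreated, 162, 14 and 3747 at 6 h and 20, 5 and 532 at 18 h. KRT6A, a keratin of activated epidermis, had 164, 130 and 86 counts in untreated SKMEL2, 0, 0 and 61 at 6 h and 212, 162 and 1 at 18 h, and 38, 0 and 993 in SKMEL30 at 6 h. TP63, a transcription factor of basal epidermis, had 404, 386 and 284 counts in SKMEL2 at 6 h, against 1, 4 and 13 in SKMEL30 at 6 h.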
